A study of Drosophila melanogaster with 47 samples.

Results

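Binding of the repressor h (Hairy) in Kc167 cells was described from the 1 peak list that covers its ChIP-seq samples, with all 216 peaks of that list out of 12745 peaks in the 16 lists of the series. Chromatin immunoprecipitation followed by sequencing (ChIP-seq) recovers DNA bound by a protein with an antibody and sequences it. The h group held 3 replicates made with the antibody KW3-h-D1 from Aviva, and the labels hold 1 input sample of Kc167 chromatin. Kc167 is an established Drosophila melanogaster line of embryonic origin with features of blood cells. No treatment, time or genotype is given for these cells, and the labels do not say whether the replicates came from separate cultures. The list gives 1 value per peak for all replicates together, so no spread between replicates can be stated, and read depth is unknown. Of the 216 peaks, 209 lay on the chromosome arms 2L, 2R, 3L, 3R, 4 and X and entered the comparisons below.

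The other 15 lists came from other material or antibodies. In Kc167 cells these were insv (3 replicates, antibody KW1-insv), Su(H) (3 replicates, Su(H)d-300) and dm (2 replicates, KW1-dm-D1), and in S2 cells CG8478. Embryos gave Cmi and br at 0 to 8 h, prd with the antibodies RF12 and RF13 and Stat92E at 0 to 12 h, and Hr78 at 8 to 16 h. Larvae (stage label W3L) gave Hr78, AbdB, Notch and Lola, and adult females gave cnc. The Cmi embryos carried the source label Exd-GFP. Stat92E, both Hr78 lists, AbdB, Notch and Lola were made with an anti-GFP antibody against a tagged protein, 6 lists in all.

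Hairy belongs to the basic helix-loop-helix Orange proteins, which bind DNA as dimers and repress transcription by recruiting the corepressor Groucho through a short motif at the C-terminal end. In the embryo h is a pair-rule gene of segmentation, and later it limits where sensory bristles form. Relatives of h encoded in the Enhancer of split complex are direct targets of Notch signalling through Su(H).

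The h peaks were narrow and of low enrichment. The authors' fold enrichment over background lay between 2.00 and 3.78 with a median of 2.31, and 12 of the 216 peaks reached 3 or more. The authors' score, the −log10 of the peak's p-value, lay between 2.90 and 9.52 with a median of 3.52, and 23 peaks scored 5 or more. Both are the authors' own values and serve here only to describe and rank peaks within a list. Scores were often tied: the 216 peaks held 119 distinct scores, and 28 peaks stood at the lowest one. The median width was 176 bp, 129 peaks were under 200 bp wide and 11 reached 500 bp.

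Scores dropped quickly from the top of the list. The peak with the highest score lay on arm 2R from 17590618 to 17591214, in coordinates of build dm3 as in all positions given, with a score of 9.52 and a fold of 3.78. The second lay on 3R at 25541644 to 25543515, 1872 bp wide, with a score of 9.36. The third lay on 2R at 16771930 to 16772280 with a score of 8.11. Scores then fell to 7.50 for the next peaks, on arm 3L (18012777 to 18013040), arm 3R (12624450 to 12624803) and arm X (13277372 to 13278124). The 7th to 10th peaks scored between 6.35 and 6.92. They lay on arm 3L (17981271 to 17981587), arm X (6003847 to 6004241), arm 3R (26959838 to 26960056) and arm 2R (11227050 to 11227329). At the other end, 28 peaks were tied at the lowest score of 2.90, and within the tie the list runs in order of chromosome. The 3 last in that order, all on 3R, were 154, 137 and 85 bp wide. No gene is named for any peak, because gene models in dm3 coordinates were not used here.

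Most of these best h peaks coincided with Cmi (Cara Mitad), a subunit of the histone methyltransferase coactivator complex that contains Trr and acts with nuclear receptors at enhancers. Of the 10 best h peaks, 9 overlapped a Cmi peak of 0 to 8 h embryos by at least 1 bp, and of the 25 best, 20 did. The exception among the 10 was the peak on X at 13277372, which overlapped insv, Notch and larval Hr78. The summits lay close together as well. The h and Cmi summits were 5 bp apart at the peak on 3R at 12624450, 1 bp apart at that on 2R at 11227050 and 30 bp apart at that on 3L at 18012777. At the top h peak they were 246 bp apart, and at the wide peak on 3R at 25541644 they were 817 bp apart.

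**Figure D1:**
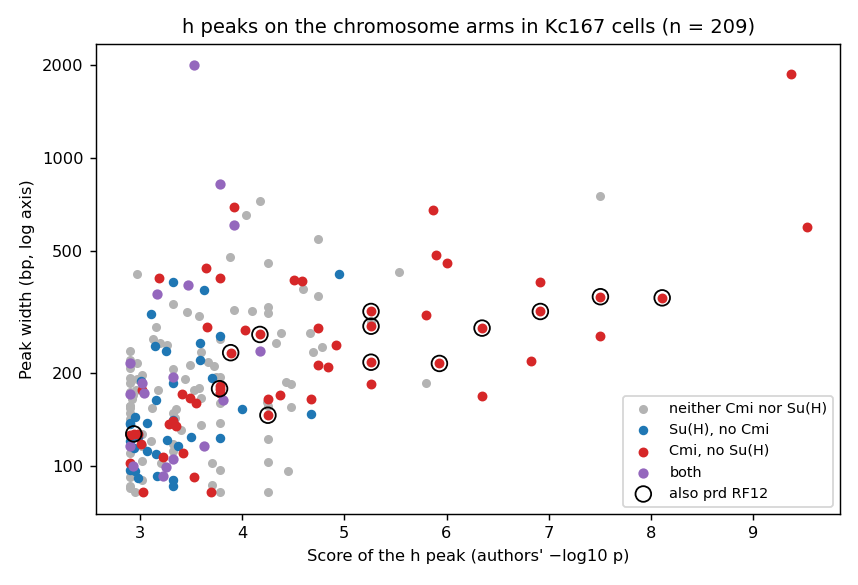
Each point is 1 of the 209 h peaks on the arms, with the authors' score (−log10 p) on the x axis and the width in bp on a log y axis; colours give overlap with Cmi and Su(H), and rings mark overlap with the prd list made with RF12. Most peaks above a score of 5 overlapped Cmi, while Su(H) was found at peaks of low score.

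The best-scoring h peaks had the highest share with Cmi and the lowest with Su(H). The 209 peaks were divided by score into 4 classes, of 53 peaks for the best and 52 for each of the others. Cmi was found at 29 of 53 peaks of the best class (54.7%, 95% Clopper-Pearson interval 40.4 to 68.4), at 36.5% and 32.7% of the middle classes and at 11 of 52 peaks of the weakest (21.2%, 11.1 to 34.7). Su(H), the DNA-binding partner of Notch, was found at 2 peaks of the best class (3.77%, 0.460 to 12.98), at 28.8% and 42.3% of the middle classes and at 28.8% of the weakest (17.1 to 43.1). The best-ranked h peak with Su(H) was number 24 of the list, although the Su(H) list held 2016 peaks on the arms. CG8478, mapped in S2 cells, also had its lowest share in the best class, with 5.66% against 21.2%, 25% and 17.3% in the following classes. Notch lay between 32.7% and 40.4% in all 4 classes. Intervals of shares cover counting error only, and peaks are not replicates, so these gradients were not tested. The best class was also the widest, with a median width of 270 bp against 132 bp in the weakest. With every peak replaced by 400 bp around its centre, Cmi was found at 54.7% of the best and 23.1% of the weakest class, and Su(H) at 3.77% and 28.8%, an alternative chosen after seeing the data.

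**Figure D2:**
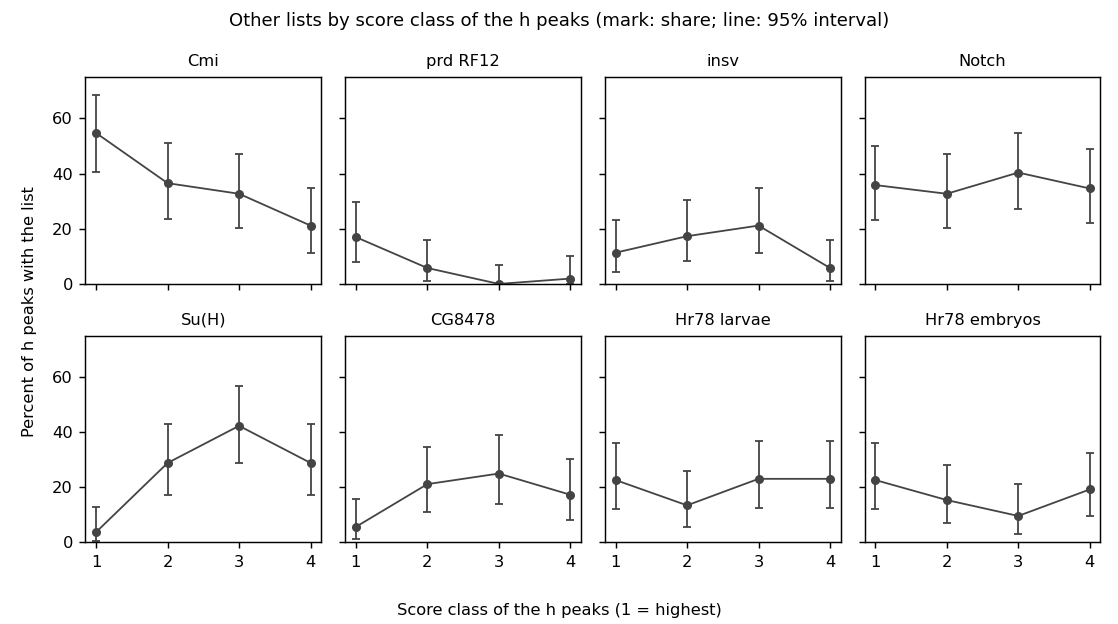
Share of h peaks overlapping each of 8 lists (y axis, percent) in the 4 score classes (x axis, 1 = highest), with 95% Clopper-Pearson intervals. Cmi stood at 54.7% in the first and 21.2% in the last class, prd with RF12 was mostly in the first class, Su(H) and CG8478 were lowest there, and Notch lay between 32.7% and 40.4%.

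The same relation held when the peaks were ranked by the Cmi list. Of the 10 best Cmi peaks, 8 overlapped h (80.0%, 44.4 to 97.5), of the 20 best 13 did (65.0%, 40.8 to 84.6), and of the 100 best 29 did (29.0%, 20.4 to 38.9). Among the best 168 peaks of the Cmi list 35 overlapped h (20.8%), and in the rest 36 of 1512 did (2.38%). The Cmi peaks at h had a median score percentile of 89.9 within their list and were 536 bp wide at the median, where all Cmi peaks were 411.5 bp. Among the 20 best peaks of 4 other lists, h was found at 4 of insv, 3 of Su(H), 3 of Hr78 in embryos and 0 of Notch. The lists differ in length, so 20 peaks are a larger part of the insv list than of the Cmi list. The 168 best Cmi peaks are 10% of that list. Among the best 10% of insv peaks 4 of 22 overlapped h (18.2%), near the share of Cmi. In the rest of insv 24 of 195 did (12.3%). The shares in the best 10% were 10.1% for embryonic Hr78, 6.53% for Notch and 5.94% for Su(H).

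The prd list made with RF12 met h only where Cmi was also present. Prd (Paired) is a pair-rule transcription factor with a paired domain and a homeodomain. All 13 h peaks that overlapped the RF12 list also overlapped Cmi, and 9 of them were in the best score class of the h list. They made up 6.22% of the 209 h peaks, near the 5.27% of bound regions without h that held the RF12 list. Of the 13 prd peaks involved, 13 overlapped Cmi (100%, 75.3 to 100), against 23 of the 335 RF12 peaks without h (6.87%, 4.402 to 10.1). Summits of h and prd at these peaks were a median of 40 bp apart, with 10 of 13 within 100 bp. Of the 10 best h peaks, 4 were of this kind, on 2R at 16771930 and 11227050, on 3R at 12624450 and on 3L at 17981271. The h peaks with prd had a median score of 5.26, against 3.43 for those without. No h peak overlapped the list made with RF13, and none of the RF12-overlapping h peaks held Su(H), insv, AbdB, Hr78, Stat92E, Lola, br or cnc.

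Over the whole list, h peaks met Cmi and Notch most often. The intervals of the shares of Cmi, insv and embryonic Hr78 lay above the share of those lists among bound regions without h. For Stat92E the lower limit was only just above, at 2.66% against 2.53%. Its 11 h peaks overlapped 10 Stat92E peaks, and 3 of the 11 lay on arm 4. For the background, peaks of all 16 lists on the arms were merged, and the 6319 merged regions without h were counted. Every such region holds at least 1 other list by construction, whereas an h peak may hold none. Of the 209 h peaks, 76 overlapped Cmi (36.4%, 29.8 to 43.3), against 24.1% of the regions without h. Notch was found at 75 (35.9%, 29.4 to 42.8) against 36.6%, and Su(H) at 54 (25.8%, 20.05 to 32.3) against 27.9%, so both were near the background. Insv (Insensitive), a corepressor of Su(H), was found at 29 (13.9%, 9.49 to 19.3) against 2.77%. Hr78, a nuclear receptor, was found at 35 in its embryonic list (16.7%, 12.0 to 22.5) against 9.80% and at 43 in its larval list (20.6%, 15.3 to 26.7) against 17.2%. CG8478 was found at 36 (17.2%, 12.4 to 23.0) against 18.9%, and the Hox protein AbdB at 29 (13.9%, 9.49 to 19.3) against 10.5%. Prd with RF12 stood at 6.22% against 5.27%, the stress regulator cnc at 5.74% against 7.53%, Stat92E of the JAK-STAT pathway at 5.26% against 2.53%, Lola, a zinc finger protein mapped as LolaI-GFP, at 4.78% against 4.59% and br (Broad) at 4.31% against 5.51%. No h peak overlapped dm, the fly Myc protein, or prd with RF13, which allows a share of up to 1.44% for each (3 counts of the total; the two-sided interval reaches 1.75%), against 0.965% and 2.03% of the regions without h.

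**Figure D3:**
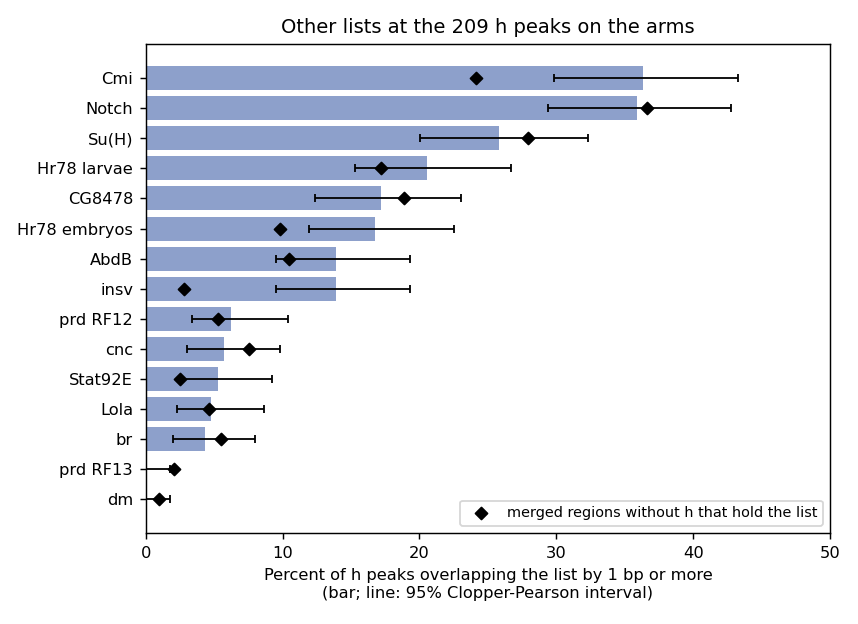
Bars give the percent of the 209 h peaks that overlap each other list by at least 1 bp, with 95% Clopper-Pearson intervals; diamonds give the percent of the 6319 merged regions without h that hold the list. The interval lies above the diamond for Cmi, insv and Hr78 in embryos, and only just for Stat92E (2.66% against 2.53%). The diamonds of the other lists are within or close to the interval.

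The overlap was small when counted in the peaks of the other lists, which were mostly longer. An h peak was found at 28 of 217 insv peaks (12.9%, 8.75 to 18.1), at 71 of 1680 Cmi peaks (4.23%), at 32 of 688 embryonic Hr78 peaks (4.65%), at 68 of 2448 Notch peaks (2.78%) and at 53 of 2016 Su(H) peaks (2.63%). Summits of h lay nearest those of Hr78, with a median distance of 22 bp in embryos and 28 bp in larvae. The median was 39 bp for Cmi, 48 bp for Notch, 49 bp for insv, 65 bp for Su(H) and 113 bp for CG8478. Of the h peaks that overlapped Cmi, 67.1% had summits within 100 bp, against 47.2% for CG8478 and 30.0% for Lola.

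The partners of h overlapped each other unevenly, in sets that were not separate. Among the 6 anti-GFP lists, Hr78, Notch and Lola came together. Of the 166 h peaks without larval Hr78, 34 had Notch (20.5%) and 2 had embryonic Hr78 (1.20%). All 10 h peaks with Lola had Notch and both Hr78 lists. Of the 43 h peaks with larval Hr78, 41 had Notch and 33 had embryonic Hr78. Stat92E was found at 10 and AbdB at 15 of those 43. AbdB also met the lists described next, with Su(H) at 14 of its 29 h peaks (48.3%) against 40 of the other 180 (22.2%), and CG8478 at 12 (41.4%) against 24 (13.3%). A second set joined Su(H), insv and CG8478. Of the 54 h peaks with Su(H), 22 had CG8478 (40.7%), against 14 of the 155 without Su(H) (9.03%), and 16 had insv (29.6%), against 13 of 155 (8.39%). Cmi was found with Su(H) at 18 of these 54 (33.3%) and at 58 of the other 155 (37.4%). Cmi was found at 9 of the 43 h peaks with larval Hr78 (20.9%) and at 67 of the 166 without it (40.4%). In all, 42 h peaks (20.1%, 14.9 to 26.2) had Cmi but neither an anti-GFP list nor any of Su(H), insv and CG8478, and 21 of these were in the best score class. The matching numbers were 38 peaks for the anti-GFP lists alone, with 11 in the best class, and 34 for Su(H), insv or CG8478 alone, with 3 in the best class. Their median scores were 4.21, 3.59 and 3.33 and their median widths 239.5, 168 and 155.5 bp. The sets were formed after the overlaps were seen and are a description, and the anti-GFP lists share an antibody, which cannot be told apart from the regulators. Of the 1963 Su(H) peaks not shared with h, 24.6% held CG8478. For most of these pairs no share away from h was counted, so whether the sets are particular to h was not tested.

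**Figure D4:**
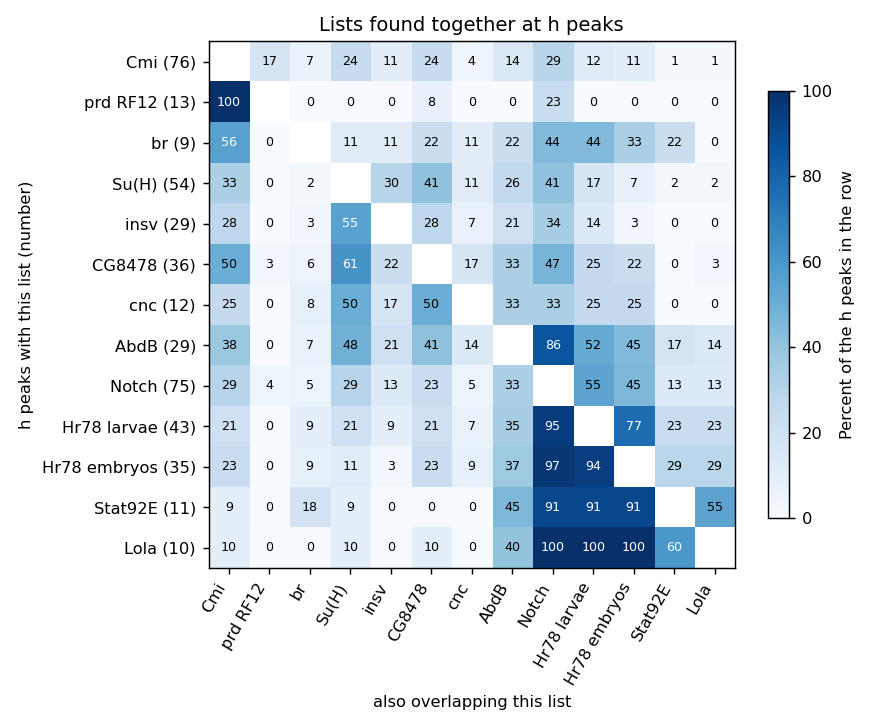
For the h peaks that overlap the list of a row (their number in brackets), each cell gives the percent that also overlap the list of the column. All 13 h peaks with prd RF12 also had Cmi, and in the rows of the anti-GFP lists other than AbdB the shares with Notch and Hr78 are the highest.

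Insv met h at 29 peaks. These were 236 bp wide at the median and the other h peaks 171 bp, while their median score of 3.53 was close to the 3.50 of the other h peaks. The best 3 were the top h peak on 2R, the peak on X at 13277372 and the peak on 3R at 1108309 to 1108726, with scores of 9.52, 7.50 and 4.94. Of the insv peaks with h, 16 of 28 also overlapped Su(H) (57.1%, 37.2 to 75.5), and of those without h 129 of 189 did (68.3%, 61.1 to 74.8). At 6 h peaks insv was the only other list, and these had a median width of 511.5 bp.

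Among peaks not shared, h met prd (RF12) and embryonic Hr78 more often and CG8478 less often than insv and Su(H) in the same cells. For larval Hr78 no difference had an adjusted p under 0.05 (Fisher's exact test). The share of peaks overlapping each of the 12 lists from other material was compared between h and insv, Su(H) or dm, leaving out peaks shared by the 2 lists compared (two-sided Fisher's exact test, Benjamini-Hochberg adjusted over the 36 tests). The share was higher in h in 6 tests (16.7% of the 36) and lower in 3 (8.33%). Of the 12 tests against Su(H) these were 33.3% and 8.33%, of the 12 against insv 16.7% in each direction, and against dm 0%. Peaks are not replicates, so these p-values cover counting error alone. The tests also took no account of position. Of the 35 h peaks with embryonic Hr78, 7 lay on arm 4, and of the 11 with Stat92E, 3 did. Many of the others lay near the start of 2R or the end of 3L. On arm 4 the Su(H) list held 6 peaks and the insv list 0, and 39.5% of the regions without h held embryonic Hr78. The part of position in the differences was not tested. Against Su(H), h had more prd RF12, at 8.39% of 155 peaks where Su(H) had 0.102% of 1963 (adjusted p = 3.55e-12 in Fisher's exact test), more embryonic Hr78 (20% against 5.86%, adjusted p = 2.56e-07), more Stat92E (6.45% against 1.02%, adjusted p = 2.49e-04) and more Cmi (37.4% against 24.8%, adjusted p = 0.00582). Over all 209 h peaks the share of prd RF12 was 6.22%, near the 5.27% of merged regions without h. For prd RF12, h thus stood above Su(H), where it was rare, but not above the bound regions without h. The h list had less CG8478 than Su(H) (9.03% against 24.6%, exact test, adjusted p = 3.22e-05). The 54 h peaks left out here for overlapping Su(H) held CG8478 at 22 (40.7%), and over all 209 h peaks its share was 17.2%. The size of the CG8478 difference therefore depends on leaving the shared peaks out.

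Against insv 4 differences passed. The h list had more prd RF12, at 7.22% of 180 peaks where insv had 1.59% of 189 (adjusted p = 0.0378 in Fisher's exact test), and more embryonic Hr78 (18.9% against 8.99%, adjusted p = 0.0331). It had less CG8478 (15.6% against 28.0%, exact test, adjusted p = 0.0234) and less prd RF13 (0% against 4.23%, adjusted p = 0.0331). Larval Hr78 was found at 21.7% of the h and 20.1% of the insv peaks (Fisher's exact test, adjusted p = 0.845). In the comparison with Su(H), larval Hr78 was at 21.9% of the h and 16.2% of the Su(H) peaks (Fisher's exact test, adjusted p = 0.148). Cmi was found at 37.8% of the h peaks (30.7 to 45.3) and 27.5% of the insv peaks (21.3 to 34.5), a difference that did not pass (Fisher's exact test, adjusted p = 0.108). Among the top-scoring 50% of every list the Cmi difference was 32.6 percentage points and passed (adjusted p = 7.86e-06, with a range of 7.86e-06 to 0.208 over 6 alternatives, all by the exact test). Each of the 4 insv differences that passed was lost under at least 2 of 6 alternatives, with adjusted p up to 0.239 for prd RF12, 0.230 for embryonic Hr78, 0.417 for CG8478 and 0.779 for prd RF13. Of the 5 differences from Su(H), that of prd RF12 passed under all 6 alternatives (adjusted p up to 0.0171). That of Cmi was lost with a distance of up to 500 bp (exact test, adjusted p = 0.0822, range 1.31e-05 to 0.0822), and those of CG8478, Hr78 and Stat92E were lost among the 200 best peaks of every list (adjusted p = 0.674, 0.198 and 0.0683, the highest over the alternatives of each).

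Against dm, with 61 peaks on the arms, none of the 12 tests passed (Fisher's exact test), and 2 were under an unadjusted p of 0.05. These were larval Hr78, at 20.6% of the h peaks (15.3 to 26.7) and 8.20% of the dm peaks (2.72 to 18.1), and embryonic Hr78, at 16.7% (12.0 to 22.5) and 29.5% (18.5 to 42.6). Of the 12 tests, 1 passed with a distance of up to 500 bp, 1 with 400 bp around each centre and 1 among the 200 best peaks. The wide intervals of the dm shares leave the difference undetermined. The labels hold 1 input for all 4 Kc167 lists, and its part in the overlap among them was not tested.

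**Figure D5:**
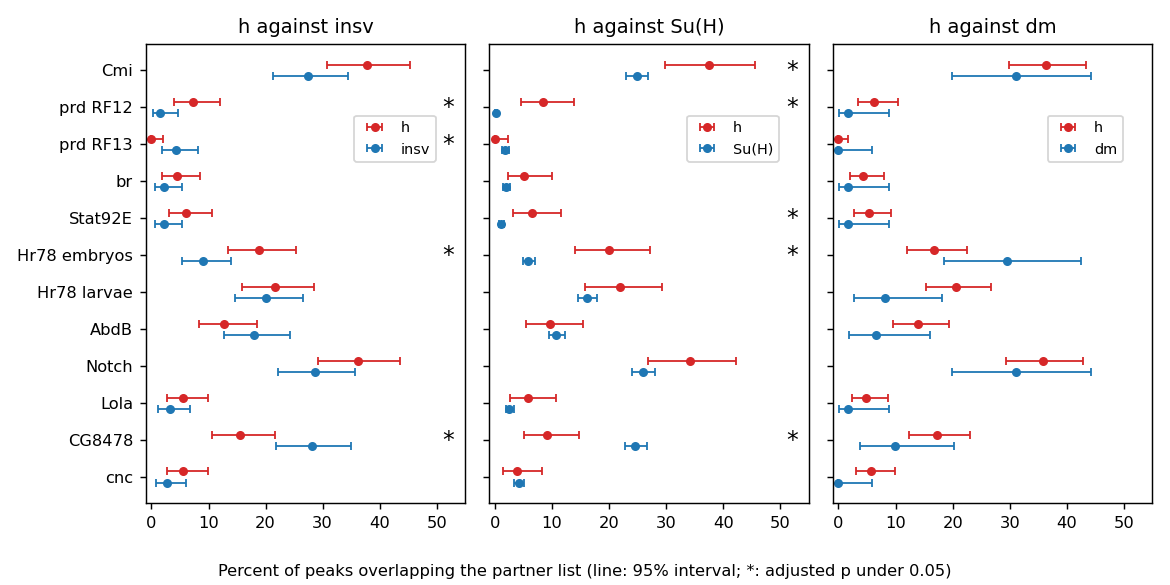
Percent of h peaks (red) and of insv, Su(H) or dm peaks (blue) that overlap each of the 12 lists from other material, with 95% Clopper-Pearson intervals; peaks shared by the lists compared are left out, and asterisks mark an adjusted p under 0.05 (Fisher's exact test). Prd RF12 and embryonic Hr78 stood higher in h than in insv and Su(H), and CG8478 stood lower. No asterisk appears for larval Hr78 or for dm.

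The h peaks without any other regulator were not set apart by width. There were 38 such peaks on the arms (18.2%, 13.2 to 24.1), with widths of 176.5 bp at the median where the 171 peaks with another regulator had 176 bp, a median fold of 2.28 against 2.31 and a median score of 3.37 against 3.55. The best of them stood at rank 27 of the list, on 3R at 20938300 to 20938543, with a score of 4.79. The next lay on 2R at 17587958 to 17588314 (score 4.75) and at 811813 to 812081 (score 4.66). Most h peaks had few partners: 62 had 1 other regulator, 49 had 2, 30 had 3, and 30 had 4 or more, with a highest number of 7. Of the 6319 merged regions without h, 33.9% held 2 or more regulators, a share of regions and not of peaks. No matching share was counted for the peaks of each other list, so whether 18.2% is high or low was not tested.

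The h peak in the region with the most regulators was one of low score. After merging, the 209 peaks lay in 192 regions, of which 33 held 4 or more other regulators (17.2%, 12.1 to 23.3), against 9.56% of the regions without h. Median widths were 540 bp for regions with h and 353 bp for those without. The h peak in the region with the most regulators, 10 in all, lay on 3R at 25598473 to 25598832 and ranked 149th with a score of 3.17. A region on X at 12628469 to 12630622 with 9 regulators held 3 h peaks, with scores of 4.37, 3.81 and 3.01. The top h peak on 2R lay in a region of 7 regulators, although the peak itself overlapped insv and Cmi only.

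Some h peaks had another h peak nearby. Of the 209 summits, 42 (20.1%, 14.9 to 26.2) had another h summit within 1 kb and 58 (27.8%, 21.8 to 34.3) within 10 kb, against 12.4% (8.36 to 17.6) and 24.0% (18.4 to 30.2) of the 217 insv peaks. The same shares were 50.8% and 74.2% of the 2016 Su(H) peaks and 9.84% at both distances of the 61 dm peaks. Within 1 kb h lay above insv, with overlapping intervals, and within 10 kb near it. At both distances h lay far below the much longer Su(H) list. A group of 5 lay around the top h peak on 2R, between 17587958 and 17591878. The scores of the 5 peaks in order along the arm were 4.75, 4.25, 3.55, 9.52 and 2.93. The first pair overlapped no other list, the third overlapped Cmi and Notch, and the last overlapped Notch and larval Hr78. On 3R between 6241350 and 6242186 3 peaks with scores of 3.29, 6.01 and 3.53 all overlapped Cmi and no other list. On 3R between 1108309 and 1113402 3 peaks held insv, Su(H) and CG8478 in differing combinations. Peaks within such a group may share a target and are not independent. The widest h peak, 1995 bp, lay on 3R at 21830381 to 21832375 with a score of 3.53 and overlapped Su(H), CG8478, Cmi, AbdB and Notch.

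By arm, 53 h peaks lay on 3R, 48 on 2R, 37 on X, 34 on 3L, 26 on 2L and 11 on 4. Arm 4, the small dot chromosome with much heterochromatin, held 5.26% of them (2.66 to 9.22), against 1.20% of the regions without h. X held 17.7% (12.8 to 23.6) against 21.0%, 2L 12.4% (8.29 to 17.7) against 16.0%, 2R 23.0% (17.4 to 29.3) against 19.2%, 3L 16.3% (11.5 to 21.98) against 19.0% and 3R 25.4% (19.6 to 31.8) against 23.7%. The 11 peaks on arm 4 overlapped larval Hr78 and Notch at 8 each, embryonic Hr78 at 7, Lola at 4 and Cmi at 2, and none overlapped Su(H), insv or CG8478. Of the 76 regions without h on arm 4, 71.1% held Notch, 42.1% larval Hr78, 39.5% embryonic Hr78, 13.2% Lola and 10.5% Cmi. Stat92E was found at 3 of the 11 h peaks, against 3.95% of these regions, br at 1 and cnc at 0, against 1.32% for each. Su(H) was in 6.58% of them, CG8478 in 9.21% and insv in 0%, so Notch and Hr78 were frequent and Su(H), insv and CG8478 rare on this arm also without h.

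The 7 h peaks off the arms lay on heterochromatic sequences, 3 on 3LHet, 3 on 3RHet and 1 on 2RHet. All 7 overlapped larval Hr78 and Notch, 6 overlapped embryonic Hr78 and 4 AbdB, and none overlapped Cmi, Su(H) or insv. On these 3 sequences Cmi had 0 peaks, Su(H) 2 and insv 1, against 48 for Notch, 31 for larval and 26 for embryonic Hr78. Of the 54 regions without h there, 74.1% held Notch, 40.7% larval Hr78, 37.0% embryonic Hr78 and 13% AbdB, while 3.7% held Su(H), 1.85% insv and 0% Cmi. The scores of the 7 h peaks lay between 2.90 and 4.25 and their widths between 113 and 324 bp. The best ranked 54th, at 1808405 to 1808677 of 3RHet.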

How the data were processed

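Libraries were made by tagmentation of immunoprecipitated DNA, per the labels' protocols. Build dm3, MACS2, BWA and CASAVA 1.7.0 are named in the submitters' processing notes. Their settings, the peak threshold and whether the input was used are not given in the sources at hand. The authors deposited, per peak, a fold enrichment (ratio), a −log10 p, called the score here, and the summit offset in bp, another deposited value. The labels name 1 list for the h replicates, and whether reads were pooled is not stated. Depth is unknown, so intervals (exact Clopper-Pearson, 95%) cover counting error only.

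Positions are 1-based. Peaks were shared at 1 bp overlap, and lists of 1 regulator counted once. Differences in share were tested with Fisher's exact test. The functions were tested on simulated lists. The named regions are the 10 best h peaks, the 5 in regions with the most regulators, the 3 best without another list, the 3 best with insv, the 3 last in rank and those off the arms. The widest peak and the groups of neighbours were chosen after their values were seen. The members, lists and tests were chosen with earlier results of these data known. Planned counts of motifs and of gene starts were left out, because neither sequence nor gene models in dm3 coordinates were used. Alternatives were a 50% overlap, a distance of 500 bp, summits within 250 bp, 400 bp around the centre, the top 50% and the 200 best peaks of each list. Calculations used Python 3.11.15, numpy 2.4.6, scipy 1.17.1, pandas 2.3.3 and matplotlib 3.10.9.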

Additional observations from a re-analysis of the deposited data

How the results depend on the processing

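The share of h peaks with any other regulator (81.8%) lay between 67.5% and 81.8% when each other list was left out, and only the Cmi list moved it beyond its interval (67.5%). Shares with single lists stayed within their intervals under the 4 alternatives to the overlap. In the top-scoring 50% of every list the share with any regulator was 72.4%, with Su(H) 9.52% and with Notch 17.1%, all below their intervals. Cmi stood at 41.9% and prd RF12 at 7.62%, both within the intervals of the whole list. In the 200 best peaks of every list the share with any regulator was 50.5%, with Su(H) 6.50%, with Notch 8.00% and with Cmi 21.5%. H regions with 5 or more regulators, h included, numbered 33, with 7 in the top 50% and 10 in the 200 best; 103 held 3 or more, 65 held 4 or more and 19 held 6 or more. The 3 lower shares against the Kc167 lists became 1 with summits within 250 bp, 1 in the top 50% and 0 in the 200 best (2 at an unadjusted p under 0.05, Fisher's exact test). In the top 50% and the 200 best peaks fewer peaks were tested. The alternatives for the score classes of the h list were chosen after seeing the data, and all 16 values stayed within the intervals. The planned motif and gene-start results were not run. No replicate could be left out, since each list covers all replicates. No paired analysis was possible because the lists carry no value per replicate.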
